A study of Mus musculus with 2 samples.

Results

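Beta cells in which the insulin transcripts Ins1 and Ins2 made up 25% to below 45% of all unique molecular identifiers (UMIs, each the count of 1 captured transcript molecule) are described here, called low-insulin beta cells. Cells qualified if at most 5% of their UMIs were mitochondrially encoded and if glucagon (Gcg) stayed below 3%, somatostatin (Sst) below 1% and pancreatic polypeptide (Ppy) below 2%. There were 683 such cells among 8698 deposited barcodes. The miR-503 transgenic library held 112 of them among 2632 beta cells at 25% insulin or more, a share of 4.26% (3.52 to 5.10), and the wild type library held 571 among 2805, a share of 20.4% (18.9 to 21.9). They are compared with the other beta cells of the same library, those at 45% insulin or more under the same limits, which numbered 2520 in the transgenic and 2234 in the wild type library and are called insulin-rich. The cells were thus chosen by measured values. Their insulin, their UMIs outside insulin, the other 3 hormones and the mitochondrial share are given as description only. Insulin also sets how much of a profile is left for every other gene, so levels are given as CPM outside insulin, the counts of a gene per 1000000 UMIs outside Ins1 and Ins2.

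Beta cells are the only cells of the islet that make insulin in quantity, and insulin messenger RNA is among the most abundant transcripts of any cell. Proinsulin is made on the rough endoplasmic reticulum, enters through the translocon, is packed with amylin (Iapp) and granins into secretory granules, and is released when glucose metabolism raises ATP, closes potassium channels and lets calcium in. Calcium entry also switches on immediate early genes within minutes, and handling of a tissue does the same. Beta cells within an islet differ in insulin content, in maturity markers such as urocortin 3 (Ucn3) and in how they respond to glucose.

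The islets came from C57BL/6 mice at postnatal day 70, either carrying a transgene for the microRNA miR-503 that is specific to beta cells or wild type. There was 1 droplet library per genotype, counting 3 prime transcript ends, with 4158 barcodes and 109243270 UMIs in the transgenic and 4540 barcodes and 104677537 UMIs in the wild type library. The sources used here do not give the promoter of the transgene, the number of mice behind each library or their sex. Islets had been taken apart with trypsin for 5 min at 37 °C.

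With 1 library per genotype no difference here has a replicate check and no test across samples was made. The 95% intervals in parentheses come from exact conditional binomial limits for log2 ratios and Clopper-Pearson limits for shares. They account for counting error alone, and cells are not replicates. In the text a gene is called where its sums differ at least 1.5-fold, among genes with at least 100 UMIs over both sums and 20 CPM outside insulin in 1 of them. The libraries shared 25 cell barcodes, which 0 transgenic and 3 wild type low-insulin cells carried. The libraries differed in sex-linked RNA. Xist, the noncoding RNA made from the inactive X, was found without any Y-linked UMI in 13.4% (7.69 to 21.1) of low-insulin and 6.55% (5.61 to 7.58) of insulin-rich transgenic cells. In the wild type library 0 of 571 low-insulin cells, which by 3 counts over the cells allows up to 0.525%, and 0 of 2234 insulin-rich cells, which allows up to 0.134%, were of this kind. The part of sex in the results was not tested.

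The sequences shown are those of the overexpressed microRNA and of the promoters of Fos, Dusp1 and Egr4. These are immediate early genes that were lower in transgenic than in wild type low-insulin cells. Promoters of Arc and Ier2, which were lower too, are not shown, so the display does not tell how common a motif is among such genes. The mature microRNA is shown beside miR-322, encoded next to it, and miR-16, the best known member of the wider family. The seed, bases 2 to 8, by which a microRNA pairs with its targets, is in capitals. Sequences and positions are from RefSeq on GRCm38.p6.
mmu-miR-503-5p (chrX:53054027-53054049, minus strand): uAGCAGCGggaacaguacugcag
mmu-miR-322-5p (chrX:53054306-53054327, minus strand): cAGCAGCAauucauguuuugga
mmu-miR-16-5p (the Mir16-2 copy, chr3:69009918-69009939, plus strand): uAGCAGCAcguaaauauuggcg
The seeds of miR-322 and miR-16 are the same, and that of miR-503 is its own, so lists of targets drawn from the family need not hold for miR-503 alone. Capture of poly(A) tails does not count mature microRNAs, and a transcript of the transgene was not looked for.

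For Fos, Dusp1 and Egr4 the stretch upstream of the start that holds the core of the cyclic AMP response element is shown. The core is TGACGT or its reverse complement ACGTCA, with matches in capitals. Such elements are bound by CREB, which acts on calcium and cyclic AMP signals.
Fos (chr12:85473804-85473863, plus strand): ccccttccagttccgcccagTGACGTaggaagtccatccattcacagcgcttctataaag
Dusp1 (chr17:26508588-26508683, minus strand): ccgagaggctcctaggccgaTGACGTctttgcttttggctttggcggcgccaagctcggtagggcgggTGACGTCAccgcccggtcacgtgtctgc
Egr4 (chr6:85513674-85513787, minus strand): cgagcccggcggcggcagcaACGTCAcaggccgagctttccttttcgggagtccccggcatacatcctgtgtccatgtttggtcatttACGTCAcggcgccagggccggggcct
The Dusp1 stretch holds 3 matches, of which the last pair overlap in the palindrome TGACGTCA, and the Egr4 stretch holds 2. Within 250 bases upstream of the start, either match was present in 7 of the 18 immediate early genes that have a promoter in the table (38.9%) and in 1971 of 27025 genes (7.29%). A match describes the letters only and does not show that the factor binds there.

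Low-insulin cells held fewer UMIs in total, at medians of 25952.5 against 29853.5 in the transgenic and 22778 against 24801 in the wild type library. The median low-insulin cell held 10424 insulin UMIs in the transgenic library, against 17918.5 in insulin-rich cells of that library. Outside insulin the order was the opposite, with a median of 15042 UMIs in low-insulin and 11676 UMIs in insulin-rich transgenic cells. The wild type library showed the same pattern, with 8766 and 13348.5 insulin UMIs, and 13737 and 11528.5 other UMIs, in low-insulin and insulin-rich cells. Detected genes also stood higher in low-insulin cells, at medians of 4171.5 against 3427.5 in the transgenic and 3934 against 3409 in the wild type library. A low insulin share in these cells thus went with fewer insulin UMIs and more UMIs of other genes per cell. The rule divides insulin UMIs by all UMIs, so it favours such cells, and these values are description only. Cells of the 25% to 30% band had the fewest insulin UMIs, at medians of 4934.5 in the transgenic (2 cells) and 6795.5 in the wild type library (18 cells).

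**Figure D1:**
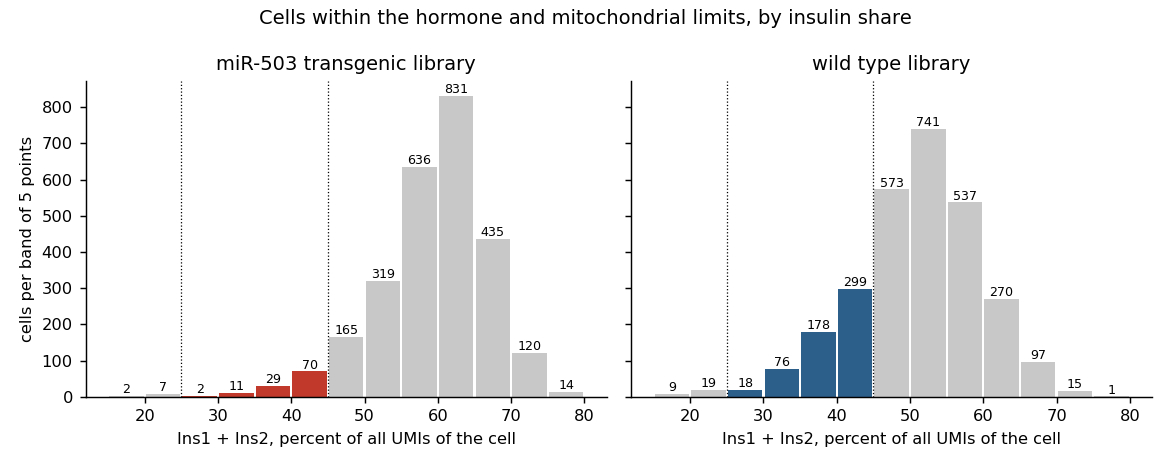
Cells within the hormone and mitochondrial limits, counted in bands of 5 percentage points of insulin share, with the miR-503 transgenic library on the left and the wild type library on the right. Coloured bars between the dotted lines at 25% and 45% are the low-insulin beta cells. The fullest band is 60% to 65% in the transgenic library, with 831 cells, and 50% to 55% in the wild type library, with 741 cells.

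In both libraries the low-insulin cells were the lower flank of a single hump in the distribution of insulin share, not a separate peak. The band just inside the limit, 40% to 45%, held 70 transgenic and 299 wild type cells, and the band just outside, 45% to 50%, held 165 and 573. The median low-insulin cell had 41.3% insulin in the transgenic and 40.3% in the wild type library. The smaller number in the transgenic library goes with the whole distribution lying further right. The mitochondrial limit acted unequally, since it removed 29 of 141 transgenic and 357 of 928 wild type cells that otherwise qualified, and the hormone limits removed 44 and 55. With the limit at 10%, the share of low-insulin cells was 5.17% in the transgenic and 27.9% in the wild type library.

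Mitochondrially encoded transcripts made up a median of 3.46% of all UMIs in low-insulin and 1.97% in insulin-rich transgenic cells, and 3.82% and 2.81% in the corresponding wild type cells. As a share of the UMIs outside insulin the medians lay closer, at 5.71% and 5.08% in the transgenic and 6.30% and 6.15% in the wild type library. The 5% limit is set on all UMIs, so it cuts this second share at lower values in low-insulin cells. Its highest values were 8.38% and 16.2% in transgenic and 8.98% and 14.7% in wild type low-insulin and insulin-rich cells. The part of the limit in the closeness was not tested. The part of this share in the results was looked at by drawing insulin-rich cells with the same spread of mitochondrial share, and values that turn over are given where they occur.

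The label of beta cells held on its markers. Slc2a2, the glucose transporter GLUT2, stood at 108 CPM outside insulin in transgenic and 148 CPM in wild type low-insulin cells, against at most 9.23 CPM in alpha, delta, gamma or non-endocrine cells of the same libraries. Gad1, which makes the transmitter GABA, was at 63.1 and 108 CPM, against at most 5.42 CPM in those classes. Iapp was at 68416 and 83902 CPM, against at most 28168 CPM there. After thinning every cell to 3000 UMIs outside insulin, a Ucn3 UMI was present in 50.9% (41.3 to 60.5) of transgenic and 62.5% (58.4 to 66.5) of wild type low-insulin cells. Non-endocrine cells, which should lack it, had one in 5.08% in the transgenic and 4.85% in the wild type library (0 cells left out as too shallow in these 4 groups). Without thinning the shares were 92.0% and 95.4% of low-insulin cells, at median depths of 15042 and 13737 UMIs, and 14.7% and 23.3% of non-endocrine cells, at 9106 and 8857.5 UMIs.

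Markers of other cell types were present in both groups of cells. Alpha markers (7 genes, among them Gcg, which the rule limits) summed to 11436 CPM in low-insulin and 10584 CPM in insulin-rich transgenic cells, and to 6126 and 6675 CPM in wild type cells. Gamma markers (3 genes, with Ppy, also limited) summed to 6917 and 6781 CPM in transgenic and 5350 and 5074 CPM in wild type cells, and ductal markers (7 genes) to 1351 and 1240 CPM and to 1582 and 1399 CPM. These sums differed little between low-insulin and insulin-rich cells and more between the libraries. The alpha sum rests mainly on Gcg, at 8294 CPM in transgenic low-insulin cells. As a share of all UMIs, median Gcg was 0.284% in transgenic and 0.183% in wild type low-insulin cells. Non-endocrine cells, which do not make it, had 0.274% and 0.174%. Ppy was at 0.253% and 0.197% in low-insulin and 0.228% and 0.182% in non-endocrine cells. How much of these sums is background was not tested. Of single markers, 3 of 6 measured alpha, 2 of 3 gamma and 2 of 4 ductal ones were 1.5-fold higher in transgenic low-insulin cells. The wild type counts were 0 of 5, 1 of 3 and 0 of 4. Of all genes with 50 UMIs 12.2% and 3.29% were higher in the transgenic and wild type libraries. Pyy, a gamma marker, was at 1734 against 1156 CPM in transgenic and 1644 against 998 CPM in wild type cells. Delta markers (5 genes, among them Sst, which the rule limits) summed to 1563 CPM in low-insulin and 982 CPM in insulin-rich transgenic cells, and to 710 and 493 CPM in wild type cells. Macrophage markers (9 genes) summed to 361 and 283 CPM in transgenic and to 274 and 221 CPM in wild type cells, with Ptprc and Cd74 among the genes counted. Most of these sums was Cd74, at 267 and 185 CPM in transgenic and 179 and 127 CPM in wild type cells. Of 8 macrophage markers measured in the transgenic library 5 were above and 3 below 0, and of 7 in wild type 4 were above and 3 below. C1qa was at −0.18 and −0.14, and C1qb at −1.21 on 5 UMIs and 0.45. Acinar markers (10 genes) summed to 143 and 208 CPM in transgenic and to 133 and 46.5 CPM in wild type cells, and 77.6% of the acinar UMIs of wild type low-insulin cells came from 1 cell. Endothelial markers (7 genes) summed to 53.3 and 24.1 CPM in transgenic cells, with 59.8% from 1 low-insulin cell, and to 70.4 and 45.5 CPM in wild type cells. T cell markers (3 genes) summed to 18.5 and 4.99 CPM in transgenic cells, with 46.9% of 32 UMIs from 1 low-insulin cell. In wild type cells they summed to 0.371 and 0.182 CPM. B cell markers (3 genes) summed to 141 and 147 CPM in transgenic and to 141 and 134 CPM in wild type cells. Cells in which the 8 non-endocrine marker lists reached 0.2% of the UMIs outside insulin made up 6.25% of low-insulin and 2.98% of insulin-rich transgenic cells, and 1.93% and 1.39% in wild type. Without these cells no count of called genes moved by more than 1.5 times.

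The question of the first comparison is which genes outside insulin go with a low insulin share. Of 6429 genes tested in the transgenic library, 403 (6.27%) were higher and 202 (3.14%) lower in low-insulin than in insulin-rich cells. Of 6275 genes tested in the wild type library, 33 (0.526%) were higher and 16 (0.255%) lower. The balance turns with the scaling, since TMM factors gave 155 higher and 502 lower in the transgenic and 14 and 67 in the wild type library, and 3 and 51 in both. The transgenic sum rests on 112 cells and about 1726490 UMIs outside insulin, against about 8085980 UMIs in 571 wild type cells, so its intervals are wider. The transgenic contrast also spans a wider range of insulin share. Median insulin was 41.3% in low-insulin and 60.9% in insulin-rich transgenic cells, against 40.3% and 53.5% in wild type cells. With insulin-rich cells limited to 45% to below 60%, 192 genes were higher and 111 lower in the transgenic library. The wild type counts were then 17 and 5. How far the counts follow from that range was not tested. Both libraries tested 6067 genes, of which 14 (0.231%) were higher and 11 (0.181%) lower in both, and 0 were called in opposite directions. A gene could pass the level limit through a single group. Of the 14, Itpr1, Apobec3, H2-Q6, Senp5, Clcn5 and Cxcl16 lay below 20 CPM in insulin-rich cells of both libraries. They passed through low-insulin cells only, as did Agpat4 in wild type, while all 11 lower genes were above 20 CPM throughout. Of all 6067 genes 79.1% had the same direction in both libraries. The shared calls were 3.47% of the higher and 5.45% of the lower calls of the transgenic library, and 42.4% and 68.8% of those of the wild type library. Over genes with at least 50 UMIs the median log2 ratio was 0.11 in the transgenic and 0.10 in the wild type library, and scaling by trimmed means (TMM) moved it to −0.06 and −0.03. Small positive ratios are therefore read against those medians and not against 0.

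**Figure D2:**
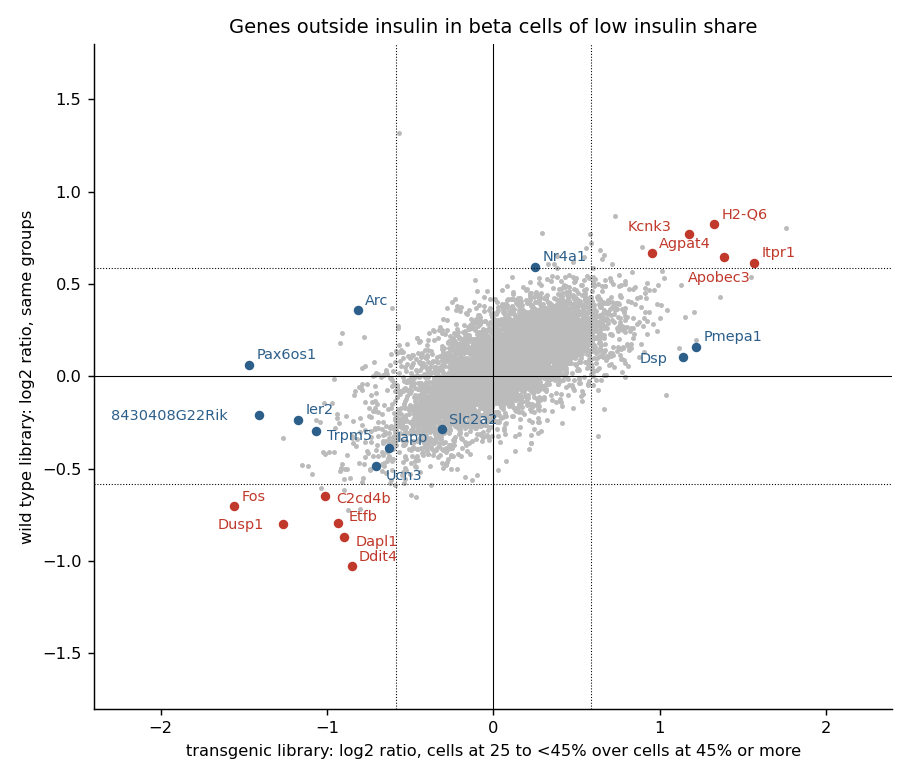
Log2 ratio of low-insulin over insulin-rich beta cells for 6067 genes tested in both libraries, with the transgenic ratio on the horizontal and the wild type ratio on the vertical axis. Dotted lines mark 1.5-fold, red points are labelled genes past it in both libraries, blue points are other labelled genes, and the remaining genes are grey. Kcnk3 and H2-Q6 lie in the upper right corner, Fos and Dusp1 in the lower left, and Arc at −0.81 and 0.36.

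Iapp, Ucn3 and Slc2a2 stood lower in low-insulin cells of both libraries. Iapp (ENSMUSG00000041681, chr6:142298423-142303961 on GRCm38), which is packed with insulin, was at 68416 CPM in low-insulin against 105634 CPM in insulin-rich transgenic cells, a log2 ratio of −0.63 (−0.64 to −0.62). In the wild type library it was at 83902 against 109614 CPM, a ratio of −0.39. Iapp thus went with insulin across cells in both libraries. Of single cells, 91.1% of transgenic and 85.6% of wild type low-insulin cells lay below the median of insulin-rich cells, so the difference was spread over the group. Ucn3, a peptide of mature beta cells, was at 279 against 454 CPM in transgenic cells (−0.70, −0.84 to −0.57) and at 388 against 543 CPM in wild type cells (−0.48, −0.54 to −0.43). Slc2a2 was at 108 against 134 CPM in transgenic (−0.31, −0.53 to −0.10) and 148 against 180 CPM in wild type cells (−0.28, −0.38 to −0.19). These 3 genes had the same order in both libraries, with every interval below 0.

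Transcription factors of beta cells split. Pdx1, which binds the insulin promoter, was at 89.2 against 111 CPM in transgenic (−0.31, −0.55 to −0.08) and 80.6 against 97.1 CPM in wild type cells (−0.27, −0.39 to −0.14). Isl1, a LIM homeodomain factor, was at −0.45 and −0.24. Other factors lay near the median of all genes: Nkx6-1 was at 0.05 and −0.04 and Nkx2-2 at 0.24 and 0.07. Neurod1 was at 220 against 198 CPM in transgenic and 215 against 182 CPM in wild type cells, ratios of 0.15 and 0.24. Mafa, the maturity factor, had 0 UMIs in transgenic and 1 UMI in wild type low-insulin cells, too few to compare. Gad1 was at −0.14 and −0.00. Of 23 measured genes of the beta identity list, 0 were 1.5-fold higher and 4 lower in the transgenic library and 0 were either in the wild type library, with medians of −0.15 and −0.08. Of all genes with 50 UMIs, 12.2% were higher and 7.42% lower in the transgenic library, and 3.29% and 1.43% in the wild type library. Other members of that list were Trpm5, a calcium-activated cation channel, at −1.07 in transgenic and −0.29 in wild type cells, the factor Rfx6 at −0.79 and −0.04, G6pc2, a glucose-6-phosphatase, at −0.48 and −0.29, and the prohormone convertase Pcsk1 at −0.30 and −0.50.

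**Figure D3:**
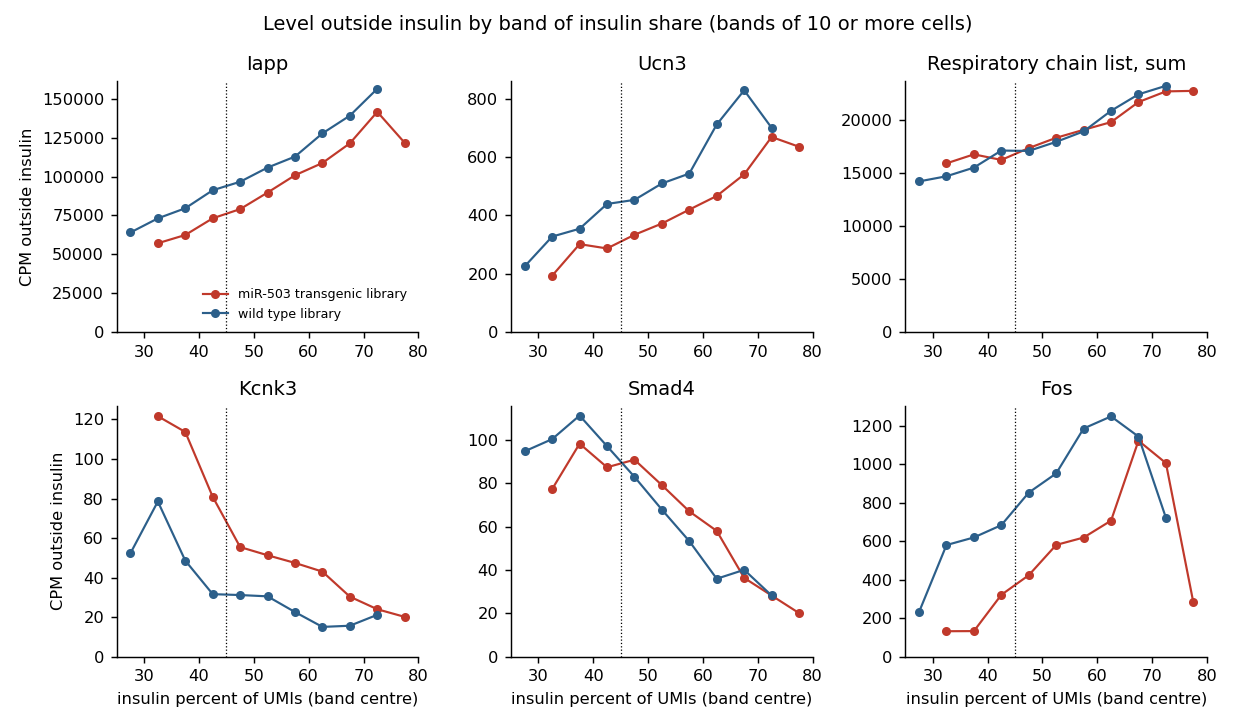
Level in CPM outside insulin by band of insulin share, for bands of at least 10 cells, with the transgenic library in red and the wild type library in blue. The dotted line at 45% parts low-insulin from insulin-rich cells. Broadly, Iapp and the respiratory chain sum stand higher, and Smad4 and Kcnk3 lower, towards high insulin share. Fos is highest at 65% to 70% in the transgenic and 60% to 65% in the wild type library.

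For Iapp and Ucn3 the bands of insulin share show a rise towards high share and no step at the limit. In wild type cells Iapp stood at 64067, 73149, 79654 and 91234 CPM in the 4 bands from 25% to 45%, and at 96681 CPM in the next. Ucn3 was at 226, 327, 354 and 439 CPM in the same 4 bands and at 453 CPM in the next. In the 3 transgenic bands with at least 10 cells, from 30% to 45%, Ucn3 was at 193, 302 and 287 CPM, and at 334 CPM in the next. At a given insulin share Ucn3 was lower in the transgenic library in each band from 30% to 75%.

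Genes of the granule list (28 genes) lay near the bulk, with medians of −0.02 in the transgenic and 0.05 in the wild type library, while a few abundant members were lower. Resp18, a granule protein related to the autoantigen IA-2, was at 1431 against 2072 CPM in transgenic (−0.53) and 1226 against 1830 CPM in wild type cells (−0.58). Scg5, the chaperone of convertase 2, was at −0.45 and −0.35, and chromogranin A (Chga) at −0.34 and −0.40. Rab3a, a small GTPase of granules, was at −0.59 and −0.23. Stx1a, a SNARE of exocytosis, was at 0.89 (−0.11 to 1.74) and 0.32 (−0.22 to 0.83), with intervals that include 0. The 22 genes of the translocon and of signal peptide processing had medians of −0.16 and −0.12, with 18 transgenic and 15 wild type members below 0 and 0 past 1.5-fold. Ssr4 of the translocon-associated complex stood at −0.58 and −0.32, Ssr2 of the same complex at −0.46 and −0.43, the oligosaccharyltransferase subunit Ddost at −0.37 and −0.40, and the signal peptidase subunit Sec11c at −0.53 and −0.24. ER chaperones and the unfolded protein response (27 genes) had medians of 0.02 and 0.09 and 0 members past 1.5-fold, with the stress sensor Atf6 at 0.26 and 0.40, the ubiquitin ligase Syvn1 at 0.30 and 0.34, and the stress factor Ddit3 at −0.10 and 0.23.

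Subunits of the respiratory chain stood lower together. Of 62 nuclear-encoded subunits of oxidative phosphorylation, 60 were below 0 in each library, with medians of −0.31 in the transgenic and −0.24 in the wild type library. Their summed level was 16362 CPM in low-insulin against 19722 CPM in insulin-rich transgenic cells, and 16169 against 18567 CPM in wild type cells. For all genes with 50 UMIs, 4688 of 11823 in the transgenic and 4030 of 11816 in the wild type library were below 0. The share of single members past 1.5-fold was 6 of 62 lower in the transgenic library, against 7.42% of all genes with 50 UMIs, and 0 of 62 in the wild type library, against 1.43%. The group thus differed by a small amount in nearly every member. Uqcrc1 of complex III was at 60.8 against 102 CPM in transgenic (−0.74) and 63.7 against 90.0 CPM in wild type cells (−0.50). Sdhb of complex II was at −0.66 and −0.36, and Ndufv1 of complex I at −0.65 and −0.30. The 13 mitochondrially encoded subunits, which the rule limits, stood at medians of 0.12 and −0.02. Etfb, which passes electrons from fatty acid oxidation into the chain, was called lower in both libraries, at 96.7 against 185 CPM in transgenic (−0.93) and 86.7 against 150 CPM in wild type cells (−0.79). Genes of glycolysis and genes kept silent in beta cells had medians of −0.09 and −0.18 over 14 members. Aldoa, an aldolase, was at −0.40 and −0.32, and Ldhb, a lactate dehydrogenase, at −0.07 and −0.43. Ldha, the other one, was at 20.3 against 8.09 CPM in transgenic (1.33) and at 3.09 against 2.66 CPM in wild type cells, but it is over 5 times more abundant in another class.

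Cytosolic ribosomal proteins took a larger part of the profile of transgenic low-insulin cells. Their sum was 170050 CPM against 143112 CPM in transgenic and 147191 against 136106 CPM in wild type cells. The median of 78 genes was 0.23 in the transgenic library, above the 0.11 of all genes, and 0.09 in the wild type library, close to the 0.10 of all genes, where TMM scaling turned it to −0.03. Rps28 stood at 0.44 and 0.20, Rps29 at 0.44 and 0.21 and Rps19 at 0.43 and 0.21. The members differed little among themselves, with 0 past 1.5-fold in either library.

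**Figure D4:**
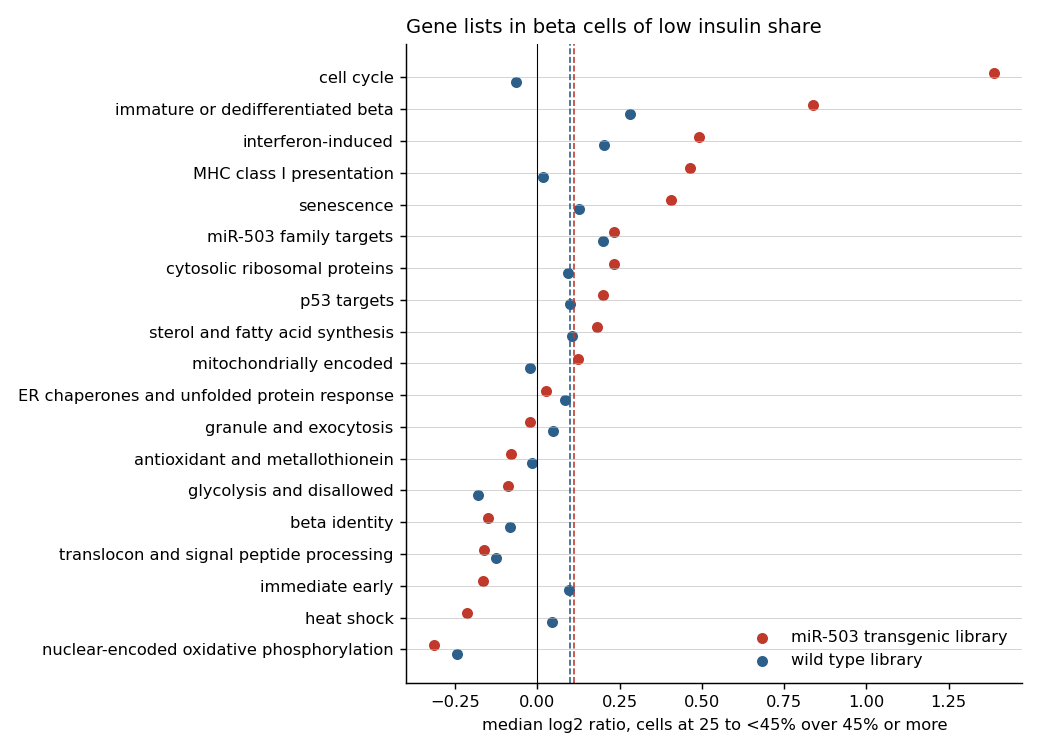
Median log2 ratio of low-insulin over insulin-rich beta cells for each pathway list, marker lists of other cell types not shown, with the transgenic library in red and the wild type library in blue. Dashed lines mark the median of all genes, 0.11 and 0.10. Among the lists shown the respiratory chain is lowest in both libraries, and the cell cycle list stands at 1.39 in the transgenic and −0.07 in the wild type library.

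Beside those lists, 12 genes were named as highest in both libraries by the smaller of their 2 ratios, of which Smad4 and Ctbp2 did not reach 1.5-fold in both. Kcnk3 (ENSMUSG00000049265, chr5:30588170-30625271), the two-pore potassium channel TASK-1, which sets resting potential, stood at 97.3 against 43.1 CPM in transgenic cells (1.17, 0.93 to 1.41) and at 44.6 against 26.2 CPM in wild type cells (0.77, 0.58 to 0.95). The wild type bands from 30% to 50% held 78.5, 48.6, 31.7 and 31.2 CPM, and the transgenic ones 122, 114, 80.9 and 55.5 CPM. Kcnk3 thus stood lower in each successive band of that range. The wild type band from 25% to 30%, of 18 cells, broke this order at 52.3 CPM. A Kcnk3 UMI was present after thinning in 20.5% of low-insulin and 11.9% of insulin-rich transgenic cells, in 10.5% and 7.5% of wild type cells, and in 2.03% and 1.94% of non-endocrine cells of the transgenic and wild type libraries.

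The other high genes were of several kinds. Itpr1, the calcium release channel of the endoplasmic reticulum, was at 1.57 in the transgenic and 0.61 in the wild type library, and the nonclassical MHC class I gene H2-Q6 at 1.33 and 0.82. H2-Q6 belongs to a family of close copies whose reads the counting could split. Apobec3, a cytidine deaminase against retroviruses, was at 1.38 and 0.65, and Agpat4, an acyltransferase of phospholipid synthesis, at 0.95 and 0.67. Smad4, the common mediator of TGF-beta signals, was at 89.2 against 60.5 CPM in transgenic (0.56) and 102 against 62.9 CPM in wild type cells (0.70). Abcc1, an export pump, was at 0.64 and 0.69, the corepressor Ctbp2 at 0.83 and 0.56, the MYC antagonist Mnt at 0.71 and 0.61, and Napb, a helper of SNARE recycling, at 0.66 and 0.66. Clcn5, a chloride-proton exchanger of endosomes, was at 0.65 and 0.63, and Senp5, a SUMO protease, at 0.60 and 0.59. Senp5 turned to −0.19 in the transgenic library when only cells below 40% were set against cells at 50% or more. Of the 14 genes called higher in both libraries, Rbp4, Pyy, Ccl5 and Cxcl16 were left out of this ranking as markers of other cells or as over 5 times more abundant in another class.

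The 12 genes named as lowest in both libraries, of which Msln did not reach 1.5-fold in both, include 2 immediate early genes. Fos (chr12:85473890-85477273), a subunit of the factor AP-1, stood at 248 against 729 CPM in transgenic cells (−1.56, −1.70 to −1.42) and 631 against 1026 CPM in wild type cells (−0.70, −0.75 to −0.66). Dusp1, a phosphatase that ends MAP kinase signals, was at 94.4 against 227 CPM in transgenic (−1.26) and 159 against 276 CPM in wild type cells (−0.80). C2cd4b, a nuclear protein at a diabetes-associated locus, was at −1.01 and −0.65. For these 3 genes the wild type ratio turned to 0.16, 0.01 and 0.14 against insulin-rich cells matched on the mitochondrial share of all UMIs. The transgenic ratios then were −0.65, −0.55 and −0.45. A second matching, on the mitochondrial share of UMIs outside insulin and added after that result was seen, left the wild type ratios at −0.67, −0.78 and −0.65.

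The remaining low genes kept their direction under both kinds of matching, although Ddit4 was at −0.04 in the transgenic library under the first. Ddit4, an inhibitor of mTORC1 induced by stress, was at 44.6 against 80.4 CPM in transgenic (−0.85) and 40.4 against 82.4 CPM in wild type cells (−1.03). Dapl1 was at 144 against 267 CPM (−0.90) and 67.2 against 123 CPM (−0.87), and here the transgenic library was higher in both groups of cells. Fkbp11, a prolyl isomerase of the secretory pathway, was at −0.87 and −0.72, the lysosomal enzyme Aga at −0.80 and −0.72, and Cbr1, a carbonyl reductase, at −0.89 and −0.62. Fam151a was at −1.03 and −0.60, Taldo1 of the pentose phosphate pathway at −0.59 and −0.59, and mesothelin (Msln) at −0.62 and −0.58. Msln turned to 0.18 in the transgenic library with cells below 40% against cells at 50% or more.

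The p53 target list (20 measured) had medians of 0.20 and 0.10, with Bbc3, which encodes the death effector PUMA, at −0.71 and −0.19. The senescence list (17 measured) had medians of 0.41 and 0.13, with 5 transgenic members and 1 wild type member at least 1.5-fold higher, beside 12.2% and 3.29% of all genes, and 7 of its members are over 5 times more abundant in another class. Cdkn1a, the p21 inhibitor of cyclin-dependent kinases, was at 203 against 144 CPM in transgenic (0.49, 0.33 to 0.65) and 201 against 177 CPM in wild type cells (0.19, 0.11 to 0.27). The inhibitor gene Cdkn2a had 3 UMIs in transgenic and 30 UMIs in wild type low-insulin cells. Cdkn2b was at 0.41 (−0.00 to 0.79) and −0.10 (−0.30 to 0.11), Trp53 at 0.08 and 0.03, and the growth factor receptor Igf1r at 0.65 and 0.22. The insulin receptor Insr was at 24.3 against 15.5 CPM in transgenic (0.65, 0.16 to 1.11) and 19.8 against 17.5 CPM in wild type cells (0.18, −0.09 to 0.44). Its transgenic ratio turned to −0.12 among cells with 6000 to 16000 UMIs outside insulin. The antioxidant list (20 measured) had medians of −0.08 and −0.02, with Prdx1 at −0.32 and −0.43, Txn1 at −0.25 and −0.50 and Srxn1, which repairs peroxiredoxins, at 0.84 and 0.21. The sterol and fatty acid list had medians of 0.18 over 24 and 0.10 over 23 members, with the desaturase Scd2 at 0.78 and 0.25 and Fdps at −0.70 and −0.40.

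Interferon-induced genes (21 measured) had medians of 0.49 in the transgenic and 0.20 in the wild type library, with 9 and 2 members at least 1.5-fold higher, against 12.2% and 3.29% of all genes with 50 UMIs. The antiviral genes Oasl2, Gbp7 and Rtp4 were at 1.21, 0.87 and 1.04 in transgenic and 0.36, 0.31 and −0.10 in wild type cells. MHC class I presentation (13 measured) had medians of 0.46 and 0.02, with the peptide transporter Tap1 at 1.16 and 0.16, H2-Q7 at 1.17 and 0.35 and beta-2 microglobulin (B2m) at 0.54 and −0.14. Of the measured members, 12 interferon and 7 MHC genes are over 5 times more abundant in another class. By the sums above, markers of macrophages, mostly Cd74, stood higher in the same cells, as did T cell markers in the transgenic library. Their part in these lists was not tested. The list of immature or dedifferentiated beta cells had medians of 0.84 over 11 and 0.28 over 12 members, 8 of them over 5 times more abundant in another class. Aldh1a3 had only 9 and 13 UMIs in transgenic and wild type low-insulin cells. Th, which makes the precursor of dopamine, ran the other way, at 66.6 against 124 CPM (−0.89) and 28.4 against 41.8 CPM (−0.56). Npy had 18 UMIs in transgenic low-insulin cells, 12 of them in 1 cell.

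Immediate early genes were mixed within and between the libraries. Of 21 measured members, 1 was at least 1.5-fold higher and 8 lower in transgenic low-insulin cells, and 2 were higher and 2 lower in wild type ones, with medians of −0.17 and 0.10. Of all genes with 50 UMIs, 12.2% were higher and 7.42% lower in transgenic and 3.29% and 1.43% in wild type cells. The sign of these medians turned with the settings: over the alternatives the transgenic one ran from −0.74 to 0.06 and the wild type one from −0.03 to 0.44. Arc, a protein of synaptic plasticity that activity induces, stood at 53.9 against 94.6 CPM in transgenic (−0.81, −1.13 to −0.51) and at 144 against 112 CPM in wild type cells (0.36, 0.26 to 0.46). Egr4, a zinc finger factor, was at 3.48 against 12 CPM on 6 UMIs in transgenic low-insulin cells, and at 51.3 against 26.5 CPM in wild type cells (0.96, 0.78 to 1.13). Wild type low-insulin cells thus had the highest Arc and Egr4 of the 4 groups, while Fos was highest in wild type insulin-rich cells. Nr4a1, an orphan nuclear receptor, was at 0.25 and 0.59, Ier2 at −1.17 and −0.23, and Jun, the other subunit of AP-1, at 734 against 1538 CPM in transgenic (−1.07) and 1117 against 1317 CPM in wild type cells (−0.24). The heat shock list (12 genes) had medians of −0.22 and 0.05. Hspa1a was at 2393 against 3747 CPM in transgenic (−0.65) and 2709 against 2646 CPM in wild type cells (0.03). These genes also answer to the dissociation of islets, and what part that had in each library was not tested.

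The second comparison sets transgenic against wild type cells within the low-insulin group. Of 6523 genes tested, 190 (2.91%) were higher and 161 (2.47%) lower in transgenic low-insulin cells. Here too a gene could pass the level limit through the group where it is high. Among the higher genes named below, Pdyn, Col27a1, Adgrb3, D430019H16Rik, Stmn1, Lockd and Cks1b lay below 20 CPM in wild type low-insulin cells. Among the lower ones, Egr4, Chd5, Bmpr2 and 1810008I18Rik lay below it in transgenic low-insulin cells. The median over genes with 50 UMIs was 0.00. The 20 genes named at the ends fall into those that stood apart to a like degree in insulin-rich cells and those that did not.

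**Figure D5:**
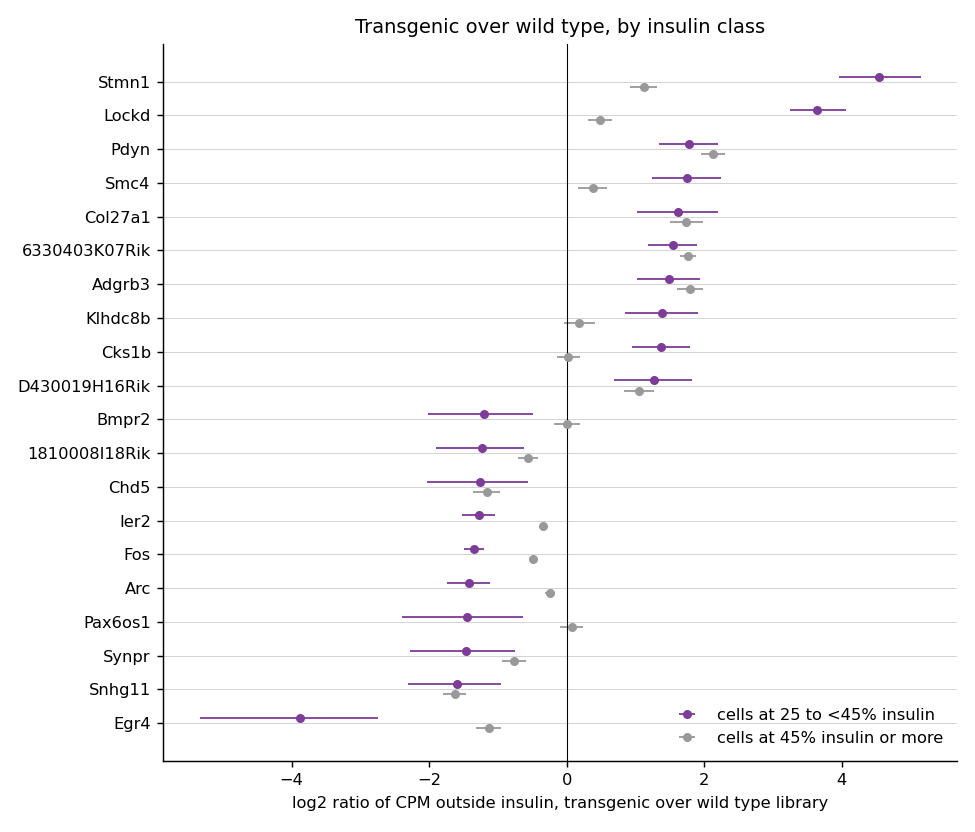
Transgenic over wild type log2 ratio for the 10 highest and 10 lowest genes among low-insulin beta cells, in purple, with the same ratio among insulin-rich cells in grey below it. Bars are 95% counting intervals. Pdyn and Snhg11 have like ratios in both classes, while Stmn1, Lockd, Egr4 and Arc lie apart.

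Of the first kind were Pdyn, the precursor of dynorphins, which stood at 46.9 CPM in transgenic and 13.7 CPM in wild type low-insulin cells (1.77, 1.34 to 2.20), with 2.13 in insulin-rich cells. The same held for the collagen gene Col27a1 at 1.62, 6330403K07Rik at 1.54, the adhesion receptor Adgrb3 at 1.49 and D430019H16Rik at 1.26, against 1.74, 1.76, 1.79 and 1.05 in insulin-rich cells. At the low end the noncoding RNA Snhg11 was at −1.60, with −1.63 in insulin-rich cells, and the chromatin remodeler Chd5 at −1.25, with −1.16. Metallothioneins, which bind zinc and copper, were lower in both classes: in low-insulin cells Mt1 was at 5943 CPM in the transgenic and 11439 CPM in the wild type library (−0.94) and Mt2 at 2470 and 5652 CPM (−1.19). The beta identity list was even between the libraries in low-insulin cells, with 11 members above and 12 below 0 and a median of −0.00. Within it Gad1 was at −0.77, Ucn3 at −0.47, Slc2a2 at −0.45 and Iapp at −0.29, and Pdx1 at 0.15 and Nkx2-2 at 0.18.

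Of the second kind at the high end were genes of dividing cells. Stmn1, which destabilises microtubules, stood at 86.3 CPM in transgenic and 3.71 CPM in wild type low-insulin cells (4.54, 3.97 to 5.16). The noncoding RNA Lockd, next to a cell cycle inhibitor gene, was at 108 and 8.66 CPM (3.65), the condensin subunit Smc4 at 1.75 and Cks1b, a partner of cyclin-dependent kinases, at 1.38. These came from few cells. Cells with at least 10 UMIs over 19 mitosis genes numbered 8 of 112 transgenic low-insulin cells (7.14%, 3.13 to 13.6) and 21 of 2520 transgenic insulin-rich cells (0.833%, 0.517 to 1.27). In the wild type library they numbered 1 of 571 low-insulin (0.175%, 0.00443 to 0.972) and 7 of 2234 insulin-rich cells (0.313%, 0.126 to 0.645). The 10-UMI limit was applied to cells of different depth, with medians of 15042 UMIs outside insulin in low-insulin and 11676 in insulin-rich transgenic cells.

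The mitosis genes were chosen after the data were seen. The 8 transgenic cells held 91.9% of the Stmn1 and 84.5% of the Lockd UMIs of the low-insulin group. They also held 62.1% and 61.8% of those of Smc4 and Cks1b. None of these genes is among the mitosis genes that picked the cells. Top2a is among them, so its share of 90.5% follows from the choice of cells. Each of the 8 cells had UMIs of 8 to 18 of the mitosis genes, Stmn1 and Lockd, and their insulin share ran from 31.6% to 44.6%. The wild type cell had 21 UMIs of Cenpf, a centromere protein, and 0 of the others. In transgenic low-insulin against insulin-rich cells the proliferation antigen Mki67 stood at 17.4 against 2.60 CPM (2.74), the mitotic cyclin Ccnb2 at 17.4 against 2.76 CPM (2.65) and the topoisomerase Top2a at 12.2 against 5.02 CPM (1.28), which turned to −1.005 among cells with 6000 to 16000 UMIs outside insulin. Of 24 measured cell cycle genes 17 were at least 1.5-fold higher in transgenic low-insulin cells, with a median of 1.39, beside 12.2% of all genes with 50 UMIs. In wild type cells 1 of 14 was higher and 2 lower, beside 3.29% and 1.43% of all genes. Over the alternatives the cell cycle median ran from 0.07 to 2.47 in the transgenic and from −0.28 to 0.04 in the wild type library. Without the dividing cells Stmn1 turned to −0.10 in the transgenic library. Top2a fell to −0.03 there, as its own UMIs had helped to pick those cells. The dividing cells had a median of 18319 UMIs outside insulin, above the 15042 of the group, and the part of doublets in their number was not tested. Klhdc8b, a protein of cell division, was at 1.38 in low-insulin and 0.19 in insulin-rich cells, with its 49 UMIs spread over 39 cells.

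At the low end the second kind was led by immediate early genes. Egr4 stood at 3.48 CPM in transgenic and 51.3 CPM in wild type low-insulin cells (−3.88, −5.34 to −2.75), against −1.14 in insulin-rich cells. Its 6 transgenic UMIs lay in 4 of 112 cells, and its 415 wild type UMIs in 122 of 571 cells. Arc was at −1.42, Fos at −1.35 and Ier2 at −1.28, against −0.25, −0.49 and −0.34 in insulin-rich cells. Of 21 immediate early genes 10 were at least 1.5-fold lower and 1 higher in transgenic than wild type low-insulin cells, with a median of −0.55, against 5.25% and 5.18% of all genes with 50 UMIs. A Fos UMI was common in all classes: 75% of transgenic and 75.8% of wild type low-insulin cells had a Fos UMI, and after thinning 33.9% (25.3 to 43.5) and 43.1% (39.0 to 47.3). Insulin-rich cells had one after thinning in 49.8% in the transgenic and 50.7% in the wild type library. There 10 and 20 cells were left out as too shallow. Non-endocrine cells had one in 25.4% and 37.9%, with the libraries in the same order. How much of any of these shares is background was not tested. Of the 428 Fos UMIs of transgenic low-insulin cells 106 lay in 1 cell. Arc after thinning was present in 14.3% (8.39 to 22.2) and 23.8% (20.4 to 27.5), and in 5.58% and 10.7% of non-endocrine cells of the transgenic and wild type libraries. Also lower were the noncoding RNA Pax6os1 at −1.46, the vesicle membrane protein Synpr at −1.47, 1810008I18Rik at −1.23 and the BMP receptor Bmpr2 at −1.21, on 13 to 24 transgenic UMIs each.

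The respiratory chain had a median of −0.00, with 29 members above and 33 below 0. All 78 ribosomal protein genes were above 0, against 4997 of those 9958 genes, with a median of 0.22, which TMM scaling moved to 0.18. The interferon list had a median of −0.22 over 19 members, 1 of them at least 1.5-fold higher and 3 lower, beside 5.18% and 5.25% of all genes, with Irf9, which carries the interferon signal to the nucleus, at −0.89. The MHC class I list had 3 of 13 members past 1.5-fold, all higher, and of 18 antioxidant and metallothionein genes 2 were higher and 3 lower. B2m was at 222 CPM in transgenic and 122 CPM in wild type low-insulin cells (0.87). The list of targets of the miR-503 family, with 20 measured members, had a median of −0.07, with 0 members 1.5-fold higher and 1, Jun at −0.61, lower, a share close to the 5.25% of all genes. In the contrast with insulin-rich cells, which differ in no transgene label, this list was at medians of 0.23 over 23 and 0.20 over 25 members, with 6 transgenic and 4 wild type members at least 1.5-fold higher, beside 12.2% and 3.29% of all genes, and with Fgfr1 at 0.81 (0.02 to 1.51) and 0.47.

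The third comparison is the difference itself, the transgenic minus the wild type log2 ratio of low-insulin over insulin-rich cells. Highest were Pmepa1, a target and inhibitor of TGF-beta signals, at 1.06 (0.71 to 1.40), the desmosome protein Dsp at 1.04 (0.61 to 1.47), the kinase Sgk2 at 1.02, Gprc5c at 0.96, Itpr1 at 0.95 and the sodium channel Scn8a at 0.95. Pmepa1 was at 66.6 against 28.6 CPM in transgenic and 32.3 against 28.9 CPM in wild type cells, so transgenic low-insulin cells stood apart from the other 3 groups. Dsp was at 33 against 15 CPM in transgenic and 46.0 against 42.8 CPM in wild type cells, where the insulin-rich transgenic cells had the lowest value. Dsp, Gprc5c and Itpr1 lay below 20 CPM in transgenic insulin-rich cells, so in that library they passed the level limit through low-insulin cells only. Lowest were Pax6os1 at −1.53 (−2.36 to −0.70), 8430408G22Rik at −1.20 (−1.45 to −0.94), Arc at −1.17 (−1.48 to −0.86), Limch1 at −1.14, the ubiquitin ligase Rnf186 at −1.10 and the mitochondrial GTPase Mtg2 at −0.99. 8430408G22Rik was at 84.0 against 222 CPM in transgenic and 158 against 182 CPM in wild type cells. Among identity genes the difference was −0.24 (−0.25 to −0.23) for Iapp, −0.22 (−0.36 to −0.08) for Ucn3 and −0.02 (−0.25 to 0.21) for Slc2a2. The ranges of insulin share behind the 2 ratios differ, since insulin-rich cells had a median of 60.9% insulin in the transgenic and 53.5% in the wild type library. With insulin-rich cells limited to 45% to below 60%, the Iapp ratio was −0.46 in the transgenic and −0.32 in the wild type library.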

How the data were processed

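The deposited values are raw counts, the UMIs per gene and cell barcode in 1 matrix per library, made by the authors. The submitters' processing notes name STAR 2.5.1b, Cell Ranger 2.1.0 and the build mm10. The tables list 27998 gene IDs, of which 27645 have a position in GENCODE release 21 (GRCm38). Each library is 1 sample of its genotype, so no test across samples was made and genes are described by size. Counts were summed over the cells of a group and divided by the sum outside Ins1 and Ins2, with Python 3.11.15, numpy 2.4.6, scipy 1.17.1 and pandas 2.3.3. Members of lists were measured from 50 UMIs, and detection was read after thinning to 3000 UMIs. The Scrublet caller (scanpy 1.11.5), told to expect 4% doublets, marked 17 (0.409%) transgenic and 2 (0.0441%) wild type cells, too few to have worked, so all cells were kept and dropping the top 4% of scores is an alternative. Alpha, delta and gamma cells were taken by hormone share, and non-endocrine cells, 197 and 206 in the transgenic and wild type libraries, by low hormone shares. The script was tested on simulated data.

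Genes were named by rule: 12 at each end ranked by the smaller ratio of the 2 libraries, 10 at each end of transgenic over wild type, 6 at each end of the difference, up to 4 per list, and 21 of prior interest, leaving out in the rankings hormones, markers, sex-linked and mitochondrially encoded genes, and any gene whose level in another class was over 5 times higher. The rules select 265 genes, from which 124 were picked for the text, a few others not being reported here, after their values and their behaviour under the alternatives had been seen, and the closing section gives what that choice does to their apparent stability. The members, the lists and the tests were chosen with earlier results of these data known. Another 10 settings were listed at the outset, 1 of which could give no value, and 5 were added after seeing the data.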

Additional observations from a re-analysis of the deposited data

Results flagged for a closer look

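For 10 genes named in the report the transgenic and the wild type ratio of low-insulin over insulin-rich cells lay on opposite sides of 0, each with a counting interval off 0. The differences, transgenic minus wild type on the log2 scale, were −1.17 for Arc, −1.14 for Limch1, −0.68 for Hspa1a, −0.59 for Hspa1b, −0.51 for the chaperone partner Dnajb1, −0.33 for Ddit3, −0.20 for Mt2, −0.15 for Mt1, 0.67 for B2m and 0.95 for Scn8a. With 1 library per genotype the difference itself was not tested. Read against the wild type median of all genes, 0.10, the wild type ratios of Hspa1a (0.03) and Mt1 (0.04) lie on the low side, so for these the opposite direction holds only against 0.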

How the results depend on the processing

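The genes named in the text are steadier than those the naming rules select. Of 150 ratios of at least 1.5-fold among the 124 named genes, 7.33% changed sign under at least 1 alternative, against 16.2% of 241 over all 265 genes of the rules and 30.8% of 91 among the 141 left out.

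Counts of called genes depended on the settings, given here as higher and lower. TMM scaling gave 155 and 502 in the transgenic library, 14 and 67 in wild type and 3 and 51 in both. A base without Iapp and mitochondrial genes gave 323 lower in transgenic, 29 in wild type and 21 in both. A 10% mitochondrial limit gave 21 and 41 in wild type and 25 lower in both, with low-insulin shares of 5.17% in transgenic and 27.9% in wild type. No CPM minimum gave 1067 and 697 in transgenic, 206 and 85 in wild type, 66 and 32 in both, and 310 lower in transgenic than wild type members. Members below 40% against cells from 50% gave 911 and 460 in transgenic, 230 and 126 in wild type, 96 and 69 in both, and 446 lower in transgenic than wild type. Insulin-rich cells of 45% to below 60% gave 192 and 111, 17 and 5, and 7 and 3. Cells of 6000 to 16000 UMIs gave 724 and 322 in transgenic, and 321 lower in transgenic than wild type. Matching on mitochondrial share of all UMIs gave 175 and 61 in transgenic, 51 and 5 in wild type and 2 lower in both. Matching on UMIs gave 92 and 52 in wild type and 45 and 36 in both. The other alternatives moved no count by over 1.5 times. The causes were not tested.

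Ratios of at least 1.5-fold changed sign for Msln (0.18), Npy (−0.23) and Senp5 (−0.19) in transgenic cells below 40%. In the depth range Insr went to −0.12, Top2a to −1.005 and the cell cycle median of transgenic over wild type to −0.028 on 4 genes. Matching on mitochondrial share of all UMIs turned the wild type ratios of C2cd4b (0.14), Dusp1 (0.0053), Fos (0.16), Lockd (0.018) and Npy (1.34). Without dividing cells Stmn1 (−0.10) and Top2a (−0.030) turned in transgenic and Lockd (0.030) in wild type. Leaving out cells with at least 1% markers of other types left 0 transgenic members, so it gave no value. No paired analysis was possible because each genotype has 1 library. The median respiratory chain ratio stayed between −0.49 and −0.19 in transgenic and −0.40 and −0.16 in wild type.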
